A study of Homo sapiens with 28 samples.

Results

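The genes described here are 45 genes of mitosis and the kinetochore, taken by symbol and sorted into 8 groups by role, from the kinases and cyclins of mitotic entry to the condensins. The list was chosen with earlier results of these data known, so the shares of all genes tested only stand beside its counts. All 45 were listed in each of the 3 deposited RNA tables, which hold 12068 genes for the siRNA in H2009, 12384 for the siRNA in H596 and 13481 for the compounds. The libraries come from NCI-H2009 and NCI-H596, human non-small-cell lung cancer lines of wild-type genotype by their labels. RUVBL1, an AAA+ ATPase that works with RUVBL2 in chaperone and chromatin complexes, was knocked down with an siRNA (siBL1), against a non-targeting siRNA (siNT), over 2.5 days for H2009 and 3 days for H596. In other dishes each line received 100 nM of compound B or of compound C for 24 h, against untreated cells with no vehicle group among the libraries. The series describes compound B as an inhibitor of RUVBL1, and both compounds are known here by these letters only. Each of the 10 groups has 2 libraries. The labels do not say whether these came from separate cultures, and the p-values then reflect no more than the spread among the libraries at hand, which may be technical.

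During mitosis the kinase CDK1 with its cyclins starts chromosome condensation and spindle assembly, kinetochores built on the centromere attach chromosomes to microtubules, and the spindle assembly checkpoint holds back the anaphase promoting complex until attachment is complete. The complex and its activator CDC20 then release the separase that opens cohesin, and the central spindle directs cytokinesis. Most of these genes are transcribed in G2 and M phase, under the MuvB complex with B-MYB and FOXM1, through the CHR promoter element (TTTGAA or TTTAAA) bound by LIN54 and the CCAAT box bound by NF-Y, and in dividing cancer lines they serve as markers of proliferation.

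Promoter windows for 39 of the 45 genes were matched by symbol in RefSeq's table for GRCh38.p14, and no window was listed for AURKA, BUB3, TTK, BIRC5, TPX2 and UBE2C. The lines below give the 120 bases before the transcription start of the 6 matched genes among the 7 that were lower in all 4 siRNA and compound B comparisons described further on, 5′ to 3′ on the strand of the gene. Capitals mark the CHR element (TTTGAA or TTTAAA) and the CCAAT box on either strand, and a CCAAT box on the other strand reads ATTGG.
PLK1, chr16:23678769-23678888, plus strand: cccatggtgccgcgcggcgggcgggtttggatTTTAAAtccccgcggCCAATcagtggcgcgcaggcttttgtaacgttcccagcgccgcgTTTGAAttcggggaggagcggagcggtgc
CDC20, chr1:43358861-43358980, plus strand: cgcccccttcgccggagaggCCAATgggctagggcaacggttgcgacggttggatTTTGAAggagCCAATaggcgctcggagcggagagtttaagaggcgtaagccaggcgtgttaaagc
KIF20A, chr5:138178992-138179111, plus strand: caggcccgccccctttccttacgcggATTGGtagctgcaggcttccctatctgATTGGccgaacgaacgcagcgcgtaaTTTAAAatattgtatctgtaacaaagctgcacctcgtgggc
CENPA, chr2:26785936-26786055, plus strand: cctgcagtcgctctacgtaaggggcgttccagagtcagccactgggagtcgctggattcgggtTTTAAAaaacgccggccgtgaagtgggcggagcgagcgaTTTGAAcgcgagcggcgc
BUB1B, chr15:40160949-40161068, plus strand: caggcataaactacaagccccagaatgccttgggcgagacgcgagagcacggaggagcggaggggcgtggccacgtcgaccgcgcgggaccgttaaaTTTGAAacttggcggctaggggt
NCAPH, chr2:96335646-96335765, plus strand: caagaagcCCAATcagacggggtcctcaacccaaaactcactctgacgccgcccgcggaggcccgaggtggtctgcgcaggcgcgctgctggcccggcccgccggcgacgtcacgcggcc

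In these stretches TTTGAA began 29 bases before the start in PLK1, 65 in CDC20, 18 in CENPA and 23 in BUB1B. TTTAAA began 88 bases before the start in PLK1, 41 in KIF20A and 57 in CENPA. The stretch of NCAPH held a CCAAT alone, 112 bases before the start. Over full windows of 250 bases before to 50 bases after the start, searched on both strands (TTTAAA reads the same on both), TTTGAA was present in 64.6% of the 48 member windows, against 15.2% of all 35116 windows and 10.4% of the windows of genes tested. The share was 29.2% against 12.2% for TTTAAA, and 70.8% against 34.6% for CCAAT. Of the 39 genes with a window, 34 had TTTGAA or TTTAAA and 30 had CCAAT. These matches are letters in a window and are not evidence of binding.

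FPKM is a read density per length of transcript and per size of library, and the depth behind a value is unknown. Differences were tested with limma on log2(FPKM + 1) within each table, a scale that understates the change of low genes, and p-values were adjusted over 11223, 12004 or 12781 genes in all. Replicate numbers were shared across groups and lines. The difference between replicate 2 and replicate 1 correlated between all 45 pairs of the 10 groups, with r of 0.475 to 0.979 over 10300 shared genes and 0.342 to 0.994 over the members. The paired fit, which adds the number as a term within each line, therefore stands beside the unpaired one. Fold changes are the same in both. Each SE is that of the unpaired fit and does not measure the precision behind a paired p-value. With 4 libraries in each siRNA table, the paired fit has little spread of its own per gene. Its small p-values there lean on the spread that limma shares across genes. In these bulk libraries fewer cells in mitosis and less RNA per cell cannot be told apart. Both lines listed the epithelial markers EPCAM, KRT8, KRT18, KRT19 and CDH1 at 32.8 FPKM or more in every library. The labels give adenocarcinoma for both lines, yet the squamous markers TP63 and KRT5 reached at least 51.5 and 259.6 FPKM in every H596 library. KRT14, also a squamous marker, was low there, at 2.11 to 11.4 FPKM. In H2009 TP63 and KRT5 stayed under 1 FPKM or were not listed, and KRT14 was at 1.17 FPKM or less or not listed. The adenocarcinoma marker NKX2-1 was listed at 1.04 FPKM or less or not listed in H596, against 15.85 FPKM or more in H2009. The adenocarcinoma markers NAPSA and SFTPB were not listed in either line and do not separate them.

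RUVBL1 had 1.75 and 1.11 FPKM in siBL1 H2009 cells, against 87.8 and 64.3 FPKM in siNT H2009 cells. It had 2.26 and 2.52 FPKM in siBL1 H596 cells, against 111.9 and 123.4 FPKM in siNT H596 cells. The knockdown was thus seen in all 4 siBL1 libraries. With 4 libraries the unpaired fit did not call even RUVBL1 (adjusted p = 0.56 in H2009 and 0.158 in H596), so its counts for the siRNA say little about single genes.

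In H596 cells all 45 genes were lower after RUVBL1 knockdown within both replicates, and all 45 fell in the paired fit, where 26.6% of all genes tested were lower and 19.8% higher. The unpaired fit called 0, with 6 at an unadjusted p under 0.05, a level that 1.14% of genes reached. The median log2 change of the 45 was -0.56, against -0.013 over all genes tested, and their range was -1.23 to -0.23. In 25 of the 45 genes both siBL1 libraries lay below both siNT libraries, as in 8.64% of genes tested.

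Of the 8 kinases and cyclins of mitotic entry, PLK1, the Polo-like kinase of centrosomes and kinetochores, had the largest change. It had 63.4 and 39.5 FPKM in siBL1 cells, against 113 and 75.1 FPKM in siNT cells, a log2 change of -0.87 (SE 0.37, paired adjusted p = 5.34e-05). AURKA, the kinase that matures centrosomes and the spindle, had 70.1 and 86.8 FPKM in siBL1 cells, against 115 and 138 FPKM in siNT cells, a log2 change of -0.69 (SE 0.25, paired adjusted p = 7.54e-05). In both genes every siBL1 library lay under every siNT library. CCNB1, cyclin B1, had 92.9 and 90.8 FPKM in siBL1 cells, against 133 and 134 FPKM in siNT cells, a log2 change of -0.54 (SE 0.21, paired adjusted p = 0.000154). CDK1, the kinase it activates, had 67.1 and 125 FPKM in siBL1 cells, against 90.3 and 155 FPKM in siNT cells, a log2 change of -0.36 (SE 0.46, paired adjusted p = 0.00091). The CDK1 groups overlapped, since replicate 2 was well above replicate 1 with either siRNA. The other cyclins CCNB2 and CCNA2, the CDK1-activating phosphatase CDC25C and the centrosome-separating kinase NEK2 changed by -0.39, -0.60, -0.58 and -0.46 on the log2 scale.

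The spindle assembly checkpoint and the chromosomal passenger complex fell by similar amounts, with median log2 changes of -0.49 over 5 genes and -0.61 over 4. BUB1, a checkpoint kinase of the kinetochore, had 25.8 and 32.3 FPKM in siBL1 cells, against 39.6 and 50.9 FPKM in siNT cells, a log2 change of -0.62 (SE 0.27, paired adjusted p = 0.000119). Its partner BUB1B, which encodes BubR1, had 29.1 and 39.6 FPKM in siBL1 cells, against 42.96 and 59.5 FPKM in siNT cells, a log2 change of -0.56 (SE 0.30, paired adjusted p = 0.000147). Neither gene's groups overlapped. The checkpoint proteins MAD2L1, TTK and BUB3 changed by -0.49, -0.41 and -0.24. BIRC5, survivin, had 32.7 and 20.9 FPKM in siBL1 cells, against 53.5 and 32.1 FPKM in siNT cells, a log2 change of -0.65 (SE 0.39, paired adjusted p = 0.000144). INCENP, the scaffold of the passenger complex, had 17.8 and 11.3 FPKM in siBL1 cells, against 27.9 and 17.98 FPKM in siNT cells, a log2 change of -0.62 (SE 0.36, paired adjusted p = 0.000132). INCENP did not overlap between groups, and BIRC5 did by a small margin. The kinase AURKB and the borealin gene CDCA8 changed by -0.60 and -0.56.

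Among 7 centromere and kinetochore genes the changes ran from -0.73 to -0.38. CENPA, the centromeric histone H3 variant, had 20.8 and 19.8 FPKM in siBL1 cells, against 35.7 and 33.04 FPKM in siNT cells, a log2 change of -0.73 (SE 0.22, paired adjusted p = 7.62e-05). SPC24, of the NDC80 complex that grips microtubules, had 20.8 and 11.7 FPKM in siBL1 cells, against 32.6 and 21.4 FPKM in siNT cells, a log2 change of -0.72 (SE 0.40, paired adjusted p = 0.000239). Neither overlapped. NDC80, NUF2 and SPC25 of the same complex changed by -0.59, -0.51 and -0.63, and the kinetochore kinesin CENPE and CENPF by -0.52 and -0.38. The 5 genes of spindle motors and assembly lay between -0.55 and -0.34. TPX2, which brings AURKA to the spindle, had 99.9 and 106 FPKM in siBL1 cells, against 141 and 152 FPKM in siNT cells, a log2 change of -0.50 (SE 0.21, paired adjusted p = 0.000178). DLGAP5, a microtubule-bundling protein of kinetochore fibres, had 35.3 and 72.4 FPKM in siBL1 cells, against 51.2 and 108 FPKM in siNT cells, a log2 change of -0.55 (SE 0.55, paired adjusted p = 0.000158). TPX2 did not overlap, whereas replicate 2 of DLGAP5 in siBL1 cells exceeded replicate 1 in siNT cells. The kinesins KIF11, KIF2C and KIF18A, which act in spindle bipolarity, microtubule depolymerization and chromosome alignment, changed by -0.49, -0.50 and -0.34.

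The largest change of all 45 was that of ANLN, anillin, which scaffolds the contractile ring. It had 105 and 185 FPKM in siBL1 cells, against 243 and 441 FPKM in siNT cells, a log2 change of -1.23 (SE 0.46, paired adjusted p = 1.58e-05). KIF14, a kinesin of the central spindle, had 5.94 and 11.7 FPKM in siBL1 cells, against 12.2 and 23.3 FPKM in siNT cells, a log2 change of -0.93 (SE 0.47, paired adjusted p = 5.09e-05). Both libraries of each gene were lower with siBL1. The kinesin KIF20A, which recruits the passenger complex to the central spindle, changed by -0.75, the microtubule bundler PRC1 by -0.59, the kinesin KIF4A by -0.56, the centralspindlin kinesin KIF23 by -0.51 and ECT2, an activator of RhoA, by -0.23. CDC20, the activator of the anaphase promoting complex, had 153 and 108 FPKM in siBL1 cells, against 267 and 193 FPKM in siNT cells, a log2 change of -0.82 (SE 0.31, paired adjusted p = 5.09e-05). UBE2C, the ubiquitin-conjugating enzyme of the complex, had 182 and 151 FPKM in siBL1 cells, against 312 and 251 FPKM in siNT cells, a log2 change of -0.75 (SE 0.25, paired adjusted p = 5.89e-05). Both stood apart between groups. ESPL1, separase, changed by -0.65 and its inhibitor PTTG1, securin, by -0.56. NCAPG, a condensin I subunit, had 12.7 and 20.8 FPKM in siBL1 cells, against 23.9 and 36.1 FPKM in siNT cells, a log2 change of -0.81 (SE 0.37, paired adjusted p = 7.56e-05). TOP2A, which untangles sister chromatids, had 82.3 and 134 FPKM in siBL1 cells, against 132 and 218 FPKM in siNT cells, a log2 change of -0.69 (SE 0.40, paired adjusted p = 7.26e-05). NCAPG did not overlap between groups and TOP2A did. The condensin subunits NCAPH, SMC4 and SMC2 changed by -0.41, -0.40 and -0.27.

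**Figure D1:**
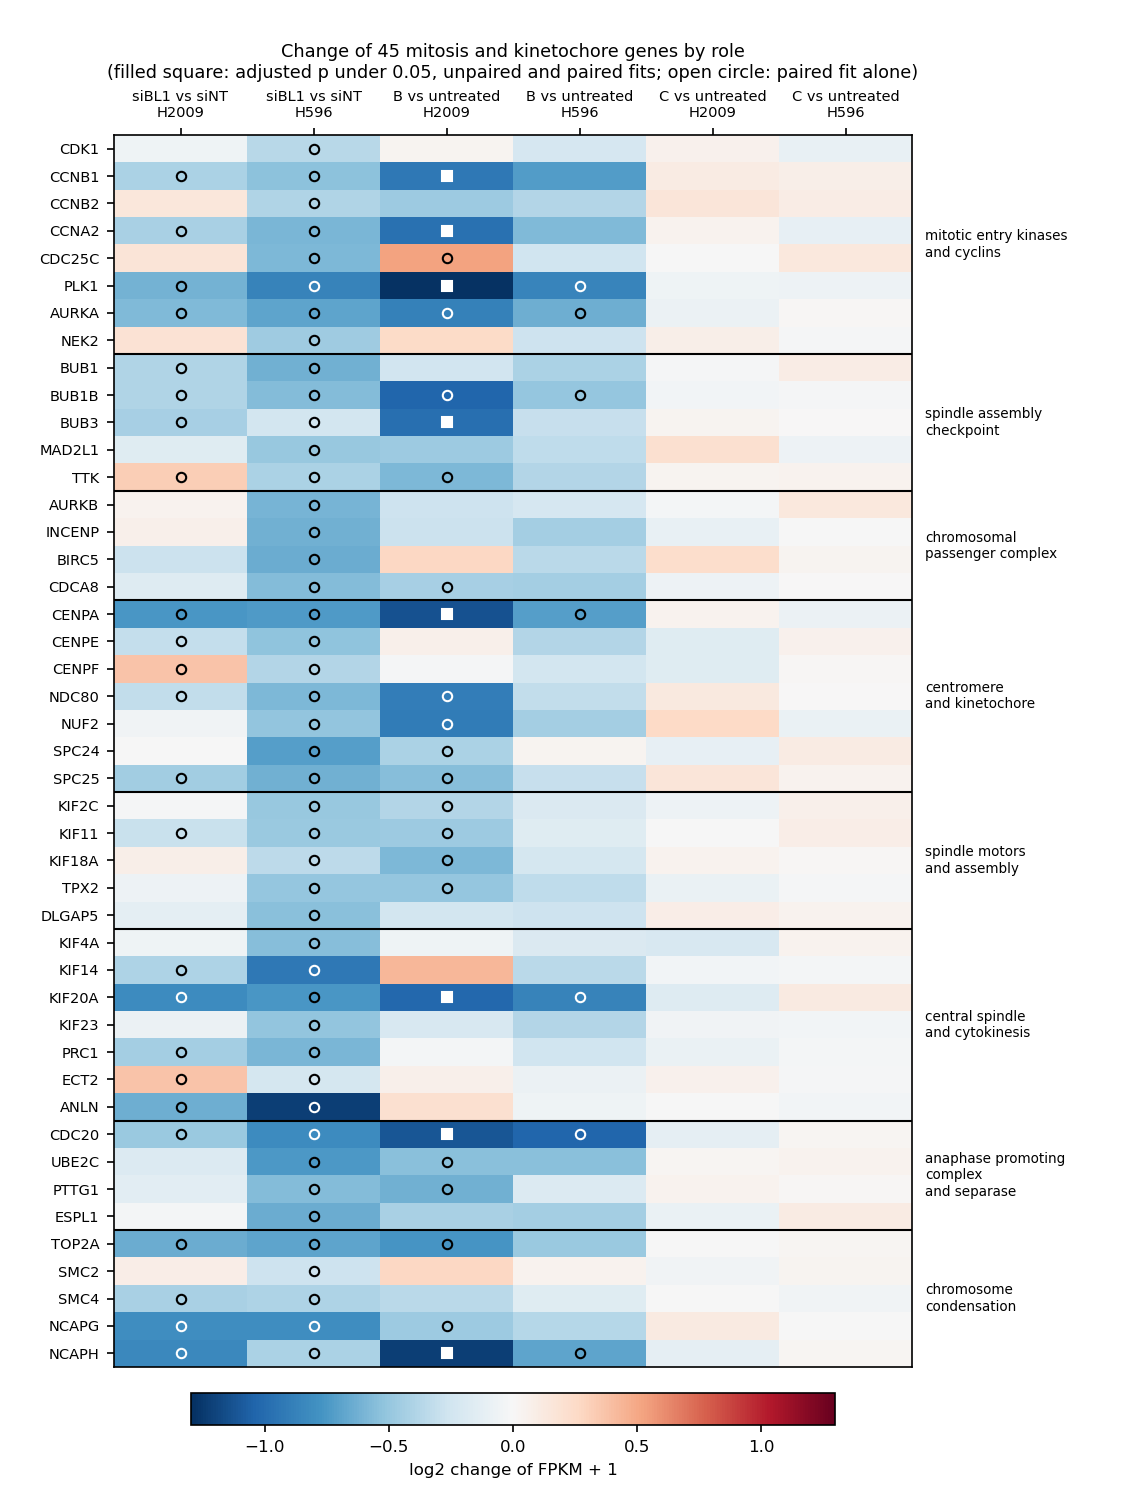
Colour gives the log2 change of FPKM + 1 of each of the 45 genes (rows, by role) in 6 comparisons (columns), from blue (lower) to red (higher). Filled squares passed in the unpaired and the paired fit and open circles in the paired fit alone: all 45 rows carry a mark for siBL1 in H596, 24 for siBL1 in H2009, 25 for compound B in H2009, 7 for compound B in H596 and 0 for compound C.

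In H2009 cells the 45 genes moved in both directions. The median log2 change after knockdown was -0.17, against -0.079 over all genes tested, with a range of -0.84 to 0.37. With quantile normalization it was -0.069, against 0.012 over all genes tested. The paired fit called 21 lower and 3 higher, where 27% of genes tested were lower and 15.4% higher, so that the lower share of the 45, 46.7%, was above that of all genes tested and the higher share below it. With quantile normalization it called 15 lower and 5 higher, where 2845 of 11223 genes tested were lower and 2923 higher. The unpaired fit called 0, with 1 gene at an unadjusted p under 0.05, against 4.74% of genes tested. In 10 of the 45 both siBL1 libraries lay below both siNT libraries, against 18.9% of genes tested. Without siBL1 replicate 2 the median of the 45 was -0.35, against 0.079 over all genes tested. Without siNT replicate 1 it was -0.30, against 0.022. The gap was small in the other settings, at -0.30 against -0.26 without siBL1 replicate 1 and -0.22 against -0.18 without siNT replicate 2.

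The 4 lower genes of mitotic entry were PLK1, AURKA, CCNB1 and CCNA2. PLK1 had 101 and 35.8 FPKM in siBL1 cells, against 149 and 57.5 FPKM in siNT cells, a log2 change of -0.61 (SE 0.72, paired adjusted p = 0.00209). AURKA had 165 and 143 FPKM in siBL1 cells, against 231 and 227 FPKM in siNT cells, a log2 change of -0.57 (SE 0.30, paired adjusted p = 0.00411). CCNB1 had 127 and 78.2 FPKM in siBL1 cells, against 151 and 117 FPKM in siNT cells, a log2 change of -0.41 (SE 0.39, paired adjusted p = 0.0207). AURKA alone of these 3 did not overlap between groups, since in PLK1 and CCNB1 replicate 1 of siBL1 exceeded replicate 2 of siNT. CDK1 had 112 and 262 FPKM in siBL1 cells, against 125 and 254 FPKM in siNT cells, a log2 change of -0.051 (SE 0.60, paired adjusted p = 0.735), a value that was 0.12 with quantile normalization. Its replicate 2 exceeded its replicate 1 with either siRNA, and the groups overlapped. Of the checkpoint genes, BUB1 had 208 and 235 FPKM in siBL1 cells, against 264 and 318 FPKM in siNT cells, a log2 change of -0.39 (SE 0.32, paired adjusted p = 0.0218). BUB3, the adaptor that brings BUB1 and BUB1B to the kinetochore, had 92.8 and 97.5 FPKM in siBL1 cells, against 122 and 136 FPKM in siNT cells, a log2 change of -0.43 (SE 0.29, paired adjusted p = 0.00993). Both were without overlap. BUB1B changed by -0.39 and was the third lower gene of this group.

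None of the 4 passenger complex genes passed, with changes from -0.28 to 0.063. CENPA had 22.7 and 14.7 FPKM in siBL1 cells, against 38.9 and 25.6 FPKM in siNT cells, a log2 change of -0.76 (SE 0.39, paired adjusted p = 0.000906). SPC25 had 18.96 and 22.5 FPKM in siBL1 cells, against 24.5 and 33.3 FPKM in siNT cells, a log2 change of -0.45 (SE 0.32, paired adjusted p = 0.0109). Neither overlapped, and NDC80 (-0.32) and CENPE (-0.31) were also lower in the paired fit. KIF11, which slides spindle poles apart, had 57.8 and 101 FPKM in siBL1 cells, against 72.3 and 121 FPKM in siNT cells, a log2 change of -0.29 (SE 0.46, paired adjusted p = 0.0461), and was the 1 spindle motor that passed. KIF20A had 69.4 and 42.3 FPKM in siBL1 cells, against 110.4 and 84.6 FPKM in siNT cells, a log2 change of -0.82 (SE 0.39, paired adjusted p = 0.000949). ANLN had 133 and 256 FPKM in siBL1 cells, against 209.6 and 391 FPKM in siNT cells, a log2 change of -0.63 (SE 0.52, paired adjusted p = 0.00249). KIF20A stood apart between groups and ANLN did not, and the central spindle genes PRC1 (-0.44) and KIF14 (-0.40) were lower as well.

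CDC20 had 65.6 and 29.2 FPKM in siBL1 cells, against 77.6 and 49.2 FPKM in siNT cells, a log2 change of -0.48 (SE 0.51, paired adjusted p = 0.0166), with overlap between groups, and UBE2C, PTTG1 and ESPL1 did not pass. Condensin I genes were among the 3 largest changes in this line, beside KIF20A. NCAPH, the kleisin subunit of condensin I, had 10.2 and 8.12 FPKM in siBL1 cells, against 16.9 and 17.2 FPKM in siNT cells, a log2 change of -0.84 (SE 0.30, paired adjusted p = 0.00138). NCAPG had 44.04 and 53.8 FPKM in siBL1 cells, against 76.5 and 97.04 FPKM in siNT cells, a log2 change of -0.81 (SE 0.32, paired adjusted p = 0.000603). In both genes the siBL1 libraries lay under the siNT libraries, and TOP2A (-0.65) and SMC4 (-0.42) were lower too. The 3 genes that rose in the paired fit were TTK, a checkpoint kinase, CENPF and ECT2. TTK had 90.8 and 254 FPKM in siBL1 cells, against 76.99 and 192 FPKM in siNT cells, a log2 change of 0.32 (SE 0.71, paired adjusted p = 0.0399). CENPF had 66.6 and 119 FPKM in siBL1 cells, against 50.02 and 93.9 FPKM in siNT cells, a log2 change of 0.37 (SE 0.49, paired adjusted p = 0.0174). ECT2 had 91.9 and 171 FPKM in siBL1 cells, against 70.4 and 133 FPKM in siNT cells, a log2 change of 0.37 (SE 0.51, paired adjusted p = 0.0187). In each of the 3 the replicates differed more than the siRNAs, and the groups overlapped.

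**Figure D2:**
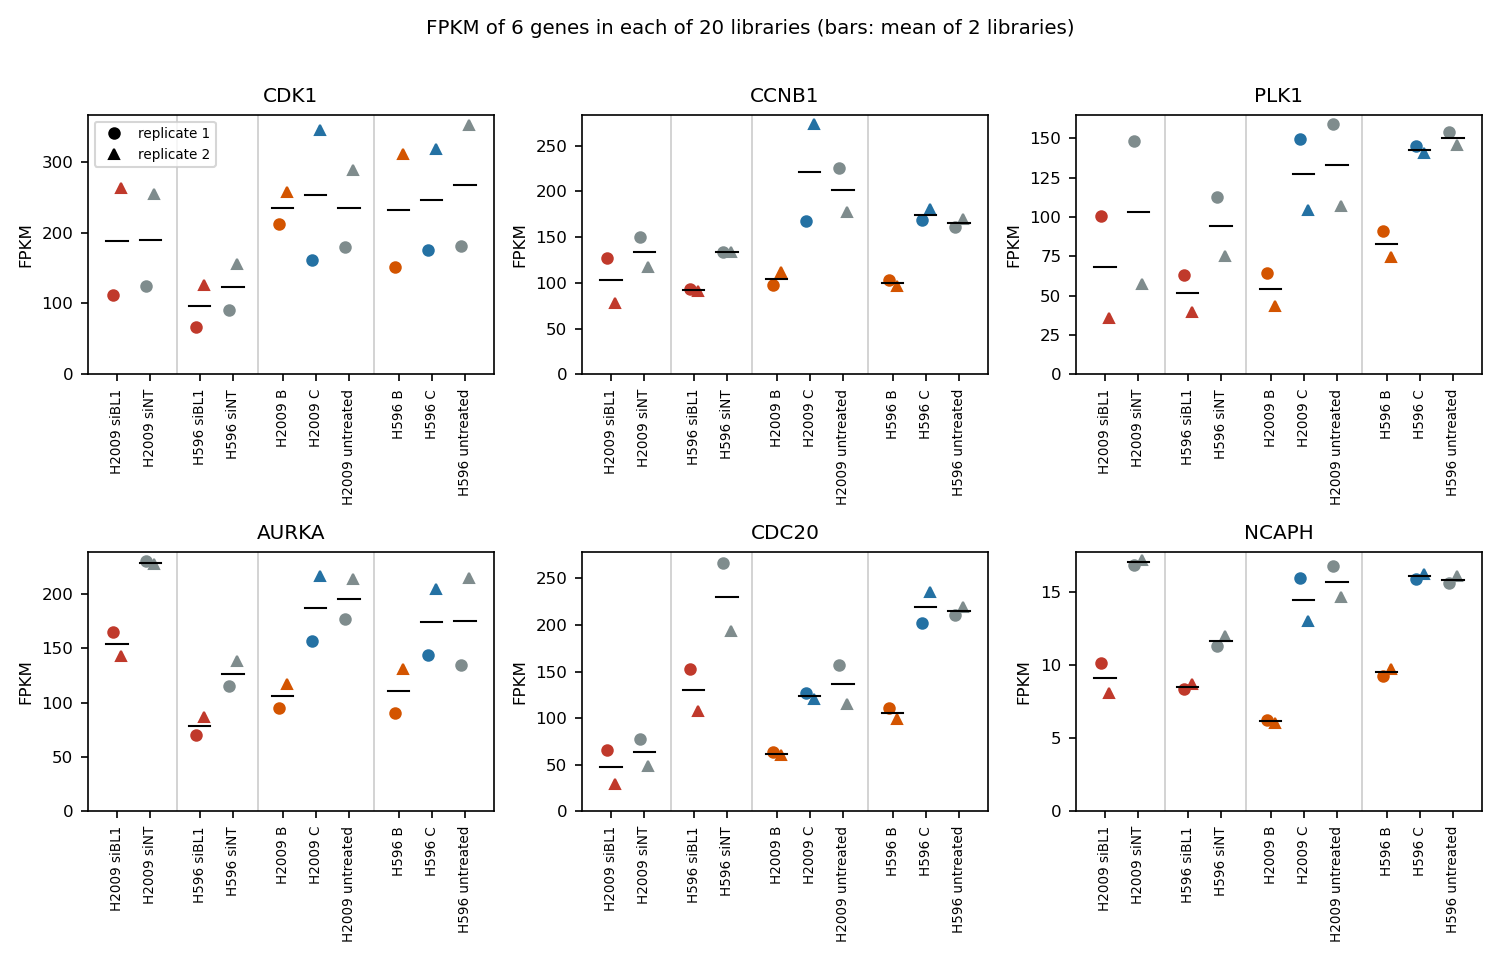
FPKM (linear axis from 0) of CDK1, CCNB1, PLK1, AURKA, CDC20 and NCAPH in each of 20 libraries, grouped by line and treatment; circles are replicate 1, triangles replicate 2 and bars the mean of 2. NCAPH with compound B in H2009 sits at 6.28 and 6.03 FPKM, under 16.7 and 14.6 FPKM in untreated cells, whereas CDK1 separates by replicate number in every group.

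Compound B in H2009 lowered 8 of the 45 genes in the unpaired fit and raised 0, where 5.02% of genes tested were lower and 6.36% higher. These were CCNB1, CCNA2, PLK1, BUB3, CENPA, KIF20A, CDC20 and NCAPH. The paired fit called 24 lower and 1 higher (backgrounds of 22.4% and 22.2%). With quantile normalization it called 17 lower and 3 higher, where 3029 of 12781 genes tested were lower and 2865 higher. The median log2 change of the 45 was -0.47, against -0.0064 over all genes tested, and -0.28 with quantile normalization. An unadjusted p under 0.05 was reached by 15 of the 45 and 26.1% of genes tested. Both compound B libraries lay below both untreated ones in 23 of the 45 and 28.1% of genes tested, and above both in 3 and 26.3%. Leaving out any 1 of the compound B or untreated libraries of this line left fewer calls, among the 45 and among all genes tested. Those fits hold 1 library in a group.

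PLK1 had 64.5 and 43.3 FPKM in compound B cells, against 159 and 107 FPKM in untreated cells, a log2 change of -1.29 (SE 0.28, adjusted p = 0.0183). CCNA2, cyclin A2 of S and G2 phase, had 47.9 and 47.3 FPKM in compound B cells, against 84.2 and 106 FPKM in untreated cells, a log2 change of -0.97 (SE 0.26, adjusted p = 0.0431). CCNB1 had 97.6 and 112 FPKM in compound B cells, against 226 and 177 FPKM in untreated cells, a log2 change of -0.93 (SE 0.25, adjusted p = 0.0431). In these 3 genes both compound B libraries lay far below both untreated libraries. AURKA had 94.9 and 117 FPKM in compound B cells, against 177 and 214 FPKM in untreated cells, a log2 change of -0.88 (SE 0.31, adjusted p = 0.11 unpaired and 0.000549 paired), also without overlap. CDK1 had 212 and 257 FPKM in compound B cells, against 179 and 289 FPKM in untreated cells, a log2 change of 0.035 (SE 0.51, adjusted p = 0.99 unpaired and 0.907 paired), and its compound B libraries lay between the untreated ones in level. CDC25C was the 1 gene higher in the paired fit. It had 26.04 and 33.1 FPKM in compound B cells, against 16.8 and 24.02 FPKM in untreated cells, a log2 change of 0.52 (SE 0.27, adjusted p = 0.261 unpaired and 0.00429 paired), and both of its compound B libraries exceeded both untreated ones.

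BUB3 had 96.8 and 112 FPKM in compound B cells, against 216 and 197 FPKM in untreated cells, a log2 change of -0.98 (SE 0.21, adjusted p = 0.0189). BUB1B had 24.4 and 31.9 FPKM in compound B cells, against 48.8 and 69.3 FPKM in untreated cells, a log2 change of -1.03 (SE 0.30, adjusted p = 0.0548 unpaired and 0.000129 paired). Neither overlapped, while BUB1 was at -0.24 and passed in neither fit. CDCA8, borealin, had 41.4 and 33.2 FPKM in compound B cells, against 68.7 and 36.8 FPKM in untreated cells, a log2 change of -0.43 (SE 0.36, adjusted p = 0.514 unpaired and 0.0365 paired), with groups that overlapped, and it was the 1 passenger complex gene that passed. CENPA had 29.03 and 25.2 FPKM in compound B cells, against 57.4 and 63.6 FPKM in untreated cells, a log2 change of -1.13 (SE 0.26, adjusted p = 0.0231). NUF2, a partner of NDC80, had 38.5 and 41.4 FPKM in compound B cells, against 57.7 and 100.3 FPKM in untreated cells, a log2 change of -0.91 (SE 0.51, adjusted p = 0.3 unpaired and 0.00271 paired). All 4 genes of the NDC80 complex were lower in the paired fit, with NDC80 at -0.89, SPC25 at -0.55 and SPC24 at -0.42, whereas CENPE and CENPF were at 0.067 and -0.013 and did not pass.

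Of 5 spindle genes 4 were lower in the paired fit. KIF18A, which limits the swing of chromosomes at the spindle equator, had 14.4 and 22.5 FPKM in compound B cells, against 19.99 and 37.8 FPKM in untreated cells, a log2 change of -0.58 (SE 0.54, adjusted p = 0.558 unpaired and 0.0051 paired). TPX2 had 166 and 140.2 FPKM in compound B cells, against 220.3 and 211 FPKM in untreated cells, a log2 change of -0.50 (SE 0.20, adjusted p = 0.156 unpaired and 0.0192 paired). TPX2 did not overlap and KIF18A did. Of 7 genes of the central spindle, KIF20A alone passed. It had 40.6 and 56.6 FPKM in compound B cells, against 85.5 and 112 FPKM in untreated cells, a log2 change of -1.02 (SE 0.22, adjusted p = 0.018), and the other 6 lay between -0.20 and 0.43. CDC20 had 63.7 and 60.02 FPKM in compound B cells, against 157 and 115 FPKM in untreated cells, a log2 change of -1.11 (SE 0.20, adjusted p = 0.00926). PTTG1 had 449.9 and 399 FPKM in compound B cells, against 626 and 679 FPKM in untreated cells, a log2 change of -0.62 (SE 0.24, adjusted p = 0.137 unpaired and 0.0273 paired). UBE2C was also lower in the paired fit (-0.55), and ESPL1 (-0.42) was not called. NCAPH had 6.28 and 6.03 FPKM in compound B cells, against 16.7 and 14.6 FPKM in untreated cells, a log2 change of -1.22 (SE 0.17, adjusted p = 0.0027), the smallest adjusted p among the 45. TOP2A had 128 and 165 FPKM in compound B cells, against 200.4 and 305 FPKM in untreated cells, a log2 change of -0.76 (SE 0.36, adjusted p = 0.219 unpaired and 0.00259 paired). In each of these 4 both compound B libraries were the lower.

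With compound B in H596, 43 of the 45 genes were below 0 on the log2 scale, as were 54.7% of genes tested. Within both replicates 41 of the 45 genes were lower, as were 39.2% of genes tested, and 0 were higher, against 31% of genes tested. The median log2 change was -0.35, against -0.025 over all genes tested. The unpaired fit called 0, with 7 at an unadjusted p under 0.05 (background 5.75%). The paired fit called 7 lower and 0 higher, where 2.89% of genes tested were lower and 3.79% higher. The median was -0.14 without compound B replicate 1 and -0.12 without untreated replicate 2, and -0.59 and -0.57 without compound B replicate 2 and untreated replicate 1. Over all genes tested the medians without these libraries were, in the same order, -0.075, -0.055, 0.023 and 0.012.

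The 7 were CDC20, KIF20A, PLK1, CENPA, NCAPH, AURKA and BUB1B. CDC20 had 111 and 98.7 FPKM in compound B cells, against 211 and 219 FPKM in untreated cells, a log2 change of -1.03 (SE 0.20, paired adjusted p = 0.00567). KIF20A had 45.5 and 49.5 FPKM in compound B cells, against 84.7 and 89.97 FPKM in untreated cells, a log2 change of -0.87 (SE 0.22, paired adjusted p = 0.00558). PLK1 had 91.3 and 74.6 FPKM in compound B cells, against 154 and 146 FPKM in untreated cells, a log2 change of -0.85 (SE 0.28, paired adjusted p = 0.00652). In all 3 both compound B libraries lay below both untreated libraries. CENPA had 37.9 and 38.8 FPKM in compound B cells, against 52.9 and 76.2 FPKM in untreated cells, a log2 change of -0.71 (SE 0.26, paired adjusted p = 0.0432). NCAPH had 9.28 and 9.7 FPKM in compound B cells, against 15.6 and 16.1 FPKM in untreated cells, a log2 change of -0.68 (SE 0.17, paired adjusted p = 0.00821). AURKA had 90.5 and 131 FPKM in compound B cells, against 135 and 215 FPKM in untreated cells, a log2 change of -0.64 (SE 0.31, paired adjusted p = 0.0241). These were also without overlap. Both compound B libraries lay below both untreated ones in 19 of the 45 and 15.2% of genes tested. BUB1B had 42.5 and 64.6 FPKM in compound B cells, against 61.5 and 90.7 FPKM in untreated cells, a log2 change of -0.50 (SE 0.30, paired adjusted p = 0.0474), and its groups overlapped. CCNB1 had 103 and 96.3 FPKM in compound B cells, against 161 and 169 FPKM in untreated cells, a log2 change of -0.72 (SE 0.25, paired adjusted p = 0.0665), and did not pass although its groups stood apart. CDK1 had 152 and 311 FPKM in compound B cells, against 181 and 352 FPKM in untreated cells, a log2 change of -0.22 (SE 0.51, paired adjusted p = 0.556). The other 36 genes passed in neither fit, and of these SPC24 (0.038) and SMC2 (0.047), a condensin ATPase, were above 0.

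Few of these genes showed a detectable difference between the lines in their response to compound B. The unpaired test of the difference called 0 of 45, with 1 at an unadjusted p under 0.05 (background 9.04%). The paired test called 0 higher in H596 (background 6.11%) and 2 lower (background 8.19%). These were CDC25C and KIF14. CDC25C was at -0.26 on the log2 scale in H596 and 0.52 in H2009, a difference of -0.78 (SE 0.38, paired adjusted p = 0.0112). KIF14 was at -0.36 in H596 and 0.43 in H2009, a difference of -0.79 (SE 0.51, paired adjusted p = 0.0473). The intervals that follow are not adjusted over genes. For PLK1 the difference was 0.43 with a 95% interval of 0.0089 to 0.86 in the paired fit, for AURKA 0.24 (-0.20 to 0.68), for CCNB1 0.21 (-0.45 to 0.86), for CDC20 0.080 (-0.41 to 0.57) and for CDK1 -0.25 (-0.84 to 0.34).

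**Figure D3:**
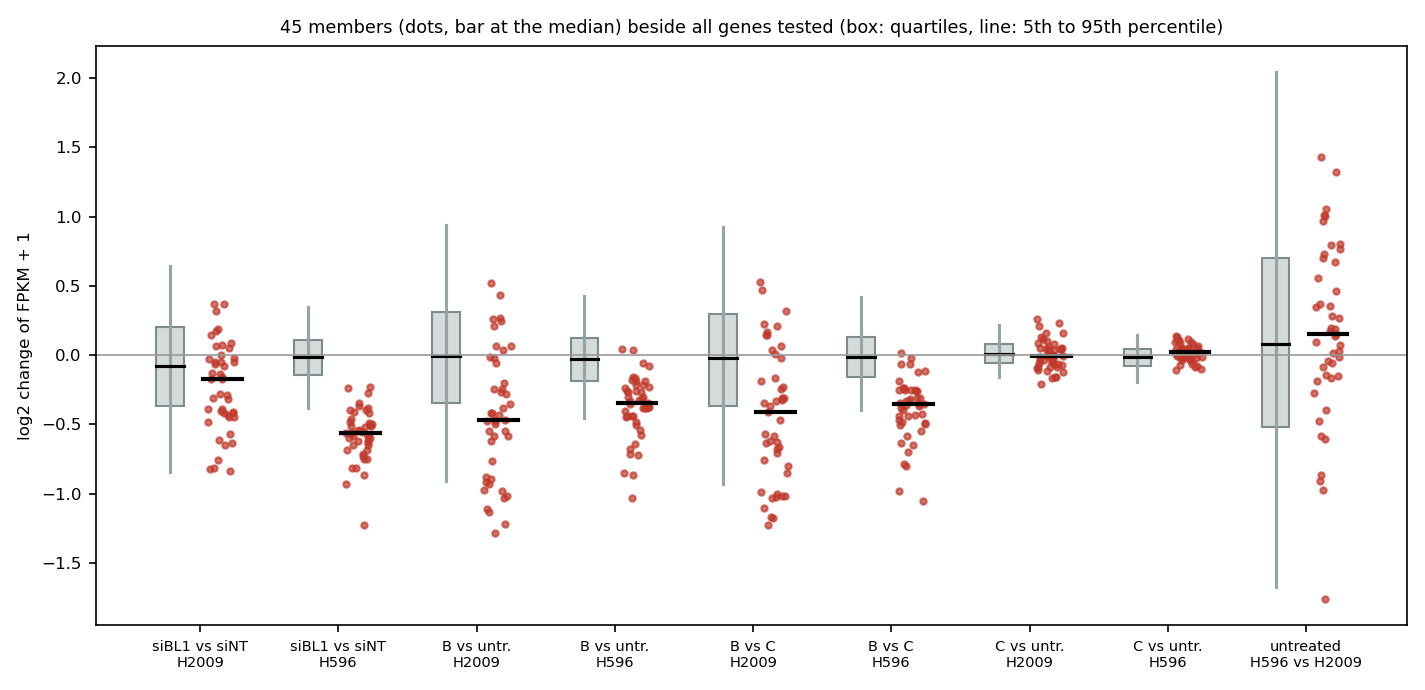
Log2 change of FPKM + 1 in 9 comparisons: red dots are the 45 genes with a bar at their median, and grey boxes and lines give the quartiles and the 5th to 95th percentiles of all genes tested. The dots for siBL1 in H596 all lie below 0 around -0.56, and those for compound C lie around -0.0080 in H2009 and 0.020 in H596.

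Compound C, given like compound B at 100 nM for 24 h, left these genes near their untreated levels. Neither fit called any of the 45 in either line, and 0 had an unadjusted p under 0.05, a level reached by 0.0704% of genes tested in H2009 and 0.156% in H596. In H2009 both compound C libraries lay above both untreated ones in 0 of the 45, against 4.26% of genes tested, and below in 0, against 2.53%. In H596 they lay above in 1, against 3.9%, and below in 2, against 7.37%. Within both replicates 15 of the 45 were higher in H596, against 21.9% of genes tested, and 6 lower, against 28.8%. In H2009 3 were higher, against 19.3%, and 5 lower, against 13.3%. Of all genes tested the unpaired fit called 0.00782% lower in H2009 and 0% in H596, and none higher. The median log2 change was -0.0080 in H2009, with a range of -0.21 to 0.26, and 0.020 in H596, with a range of -0.11 to 0.14. PLK1 had 149.7 and 105 FPKM in compound C cells, against 159 and 107 FPKM in untreated cells in H2009, and 145 and 140.5 FPKM in compound C cells, against 154 and 146 FPKM in untreated cells in H596. Its log2 change was -0.059 (95% interval -0.36 to 0.24 in the paired fit) in H2009, where the groups overlapped, and -0.070 (95% interval -0.37 to 0.23 in the paired fit) in H596, where they lay close together without overlap. CDC20 had 127 and 121 FPKM in compound C cells, against 157 and 115 FPKM in untreated cells in H2009, and 203 and 235 FPKM in compound C cells, against 211 and 219 FPKM in untreated cells in H596. Its log2 change was -0.12 (95% interval -0.47 to 0.23 in the paired fit) in H2009 and 0.021 (95% interval -0.33 to 0.37 in the paired fit) in H596. AURKA, CCNB1 and CDK1 were at -0.075, 0.10 and 0.054 in H2009 and at 0.013, 0.080 and -0.099 in H596. Median half-widths of the 95% intervals over the 45 were 0.66 unpaired and 0.35 paired in these tables.

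Set directly against compound C in H2009, 1 pair of compounds at a matched dose and time, compound B gave 8 lower and 0 higher in the unpaired fit (backgrounds 5.28% and 6.16%). The paired fit gave 23 lower and 2 higher (backgrounds 24% and 21.6%). With quantile normalization it gave 18 and 5, where 2990 of 12781 genes tested were lower and 2827 higher. The untreated and compound C comparisons share the compound B libraries, so they are not independent. NCAPH had 6.28 and 6.03 FPKM in compound B cells, against 15.9 and 13.01 FPKM in compound C cells, a log2 change of -1.11 (SE 0.17, adjusted p = 0.00441). CDC20 had 63.7 and 60.02 FPKM in compound B cells, against 127 and 121 FPKM in compound C cells, a log2 change of -0.99 (SE 0.20, adjusted p = 0.015). BUB3 had 96.8 and 112 FPKM in compound B cells, against 178 and 252 FPKM in compound C cells, a log2 change of -1.02 (SE 0.21, adjusted p = 0.0165). None of these overlapped, nor did the other 5. The log2 changes of the other 5 were -1.18 for CENPA, -1.23 for PLK1, -1.03 for CCNB1, -1.02 for CCNA2 and -0.85 for KIF20A. Both compound B libraries lay below both compound C ones in 24 of the 45 and 27.2% of genes tested. Among genes lower in the paired fit alone, NUF2 had 38.5 and 41.4 FPKM in compound B cells, against 64.5 and 129 FPKM in compound C cells, a log2 change of -1.17 (SE 0.51, adjusted p = 0.18 unpaired and 0.000585 paired). BUB1B changed by -1.001, AURKA by -0.80, TOP2A by -0.76, PTTG1 by -0.66, KIF18A by -0.62 and KIF11 by -0.47. CDC25C (0.53) and KIF14 (0.47) were the 2 higher genes, and CDK1 was at -0.018, or 0.32 with quantile normalization. Leaving out any 1 of these libraries left fewer unpaired calls among the 45, in fits that hold 1 library in a group. Over all genes tested they were also fewer, except without compound C replicate 1.

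In H596 the compounds differed in 5 of the 45 genes in the paired fit, all lower with compound B (background 1.67% lower and 2.99% higher), and in 0 in the unpaired fit, with 7 at an unadjusted p under 0.05 (background 4.69%). CDC20 had 111 and 98.7 FPKM in compound B cells, against 203 and 235 FPKM in compound C cells, a log2 change of -1.05 (SE 0.20, paired adjusted p = 0.0059). KIF20A had 45.5 and 49.5 FPKM in compound B cells, against 89.9 and 99.7 FPKM in compound C cells, a log2 change of -0.98 (SE 0.22, paired adjusted p = 0.00344). NCAPH had 9.28 and 9.7 FPKM in compound B cells, against 15.9 and 16.2 FPKM in compound C cells, a log2 change of -0.70 (SE 0.17, paired adjusted p = 0.00847). PLK1 and AURKA, the other 2, changed by -0.78 and -0.65. Each of the 5 was without overlap. Both compound B libraries lay below both compound C ones in 23 of the 45 and 13.3% of genes tested. CCNB1 was at -0.80 (paired adjusted p = 0.0584) and CDK1 at -0.12, with a 95% interval of -0.54 to 0.30 in the paired fit. The median log2 change of the 45 was -0.35, but -0.20 without compound B replicate 1 or compound C replicate 2, and -0.59 and -0.56 without compound B replicate 2 and compound C replicate 1.

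The siRNA and compound B comparisons share no libraries. In the paired fit 7 genes were lower in all 4 of them: PLK1, AURKA, BUB1B, CENPA, KIF20A, CDC20 and NCAPH. A further 8 were lower in 3 of the 4, 15 in 2 and 15 in 1, the last through H596 with the siRNA in each case. Of the 10300 genes tested in all 3 tables, 1.17% were lower in all 4, 6.53% in 3, 16.1% in 2 and 26% in 1. These shares only stand beside the members' counts, since the members were chosen with such results known. The count of 7 rests on compound B in H596, where BUB1B had the highest adjusted p. Other settings were tried for that comparison alone, with the calls of the other 3 kept. The count was then 6, without BUB1B, with a pseudocount of 0.1. It was 4, without AURKA, BUB1B and CENPA, with 1 replicate term over both lines. Quantile normalization was not tried for this count. The 8 were CCNB1, CCNA2, BUB3, NDC80, SPC25, KIF11, TOP2A and NCAPG. Across the 45 genes the log2 changes with siBL1 and with compound B had a Pearson r of 0.51 and a Spearman rho of 0.50 in H2009, where 30 of the 45 genes were lower with both. Over the 11074 genes tested in both tables r was 0.56 and rho 0.53, and 39.6% of genes were lower with both. Across the 45 in H596 r was 0.33 and rho 0.42, with 43 lower with both. Over 11695 genes r was 0.36 and rho 0.39, and 37.5% were lower with both. Genes are not independent replicates, and these coefficients only describe the points. ANLN was far lower with the siRNA than with the compound. Its log2 values were -1.23 with siBL1 and -0.058 with compound B in H596, and -0.63 with siBL1 and 0.21 with compound B in H2009, a contrast between tables and times that was not tested.

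**Figure D4:**
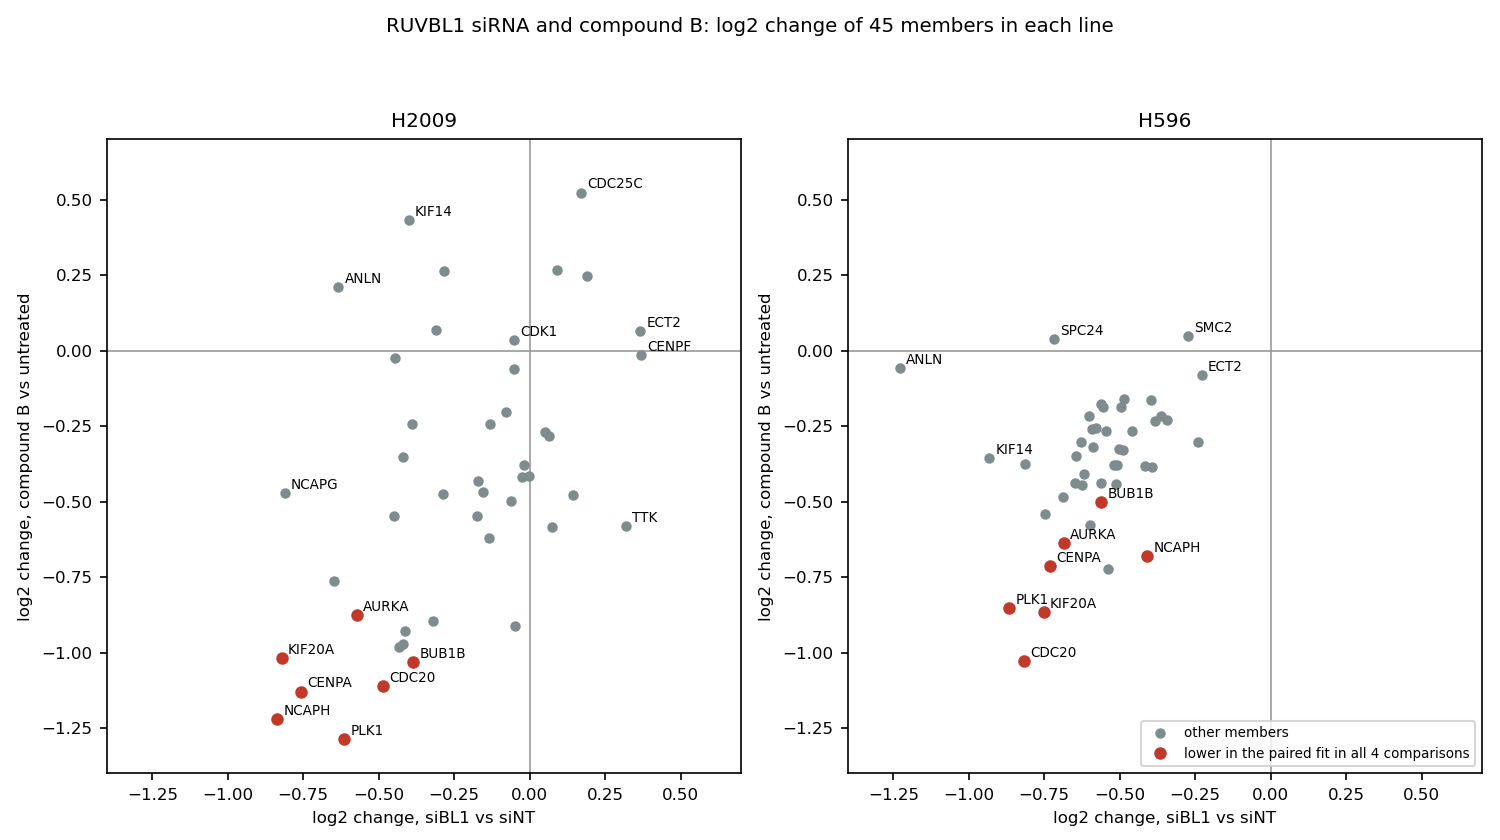
Each point is 1 of the 45 genes, with its log2 change of FPKM + 1 after siBL1 against siNT on the horizontal axis and after compound B against untreated cells on the vertical axis, in H2009 (left) and H596 (right). The 7 genes lower in the paired fit in all 4 comparisons (red) lie below 0 on both axes, as do 30 of the 45 in H2009 and 43 in H596. PLK1 is at -0.61 and -1.29 in H2009 and at -0.87 and -0.85 in H596.

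In many of these genes the replicates of a group differed by as much as the groups did. DLGAP5, TTK, KIF18A and CDK1 were higher in replicate 2 in all 10 groups, with median log2 differences of 1.05, 1.09, 0.98 and 0.92. ESPL1, CDCA8 and PLK1 were lower in replicate 2 in all 10 groups, with medians of -0.66, -0.57 and -0.56. NCAPH and PRC1 had medians near 0, at 0.028 and -0.0046. The labels do not say what the number marks, and its part in the results was not tested beyond the paired fit.

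**Figure D5:**
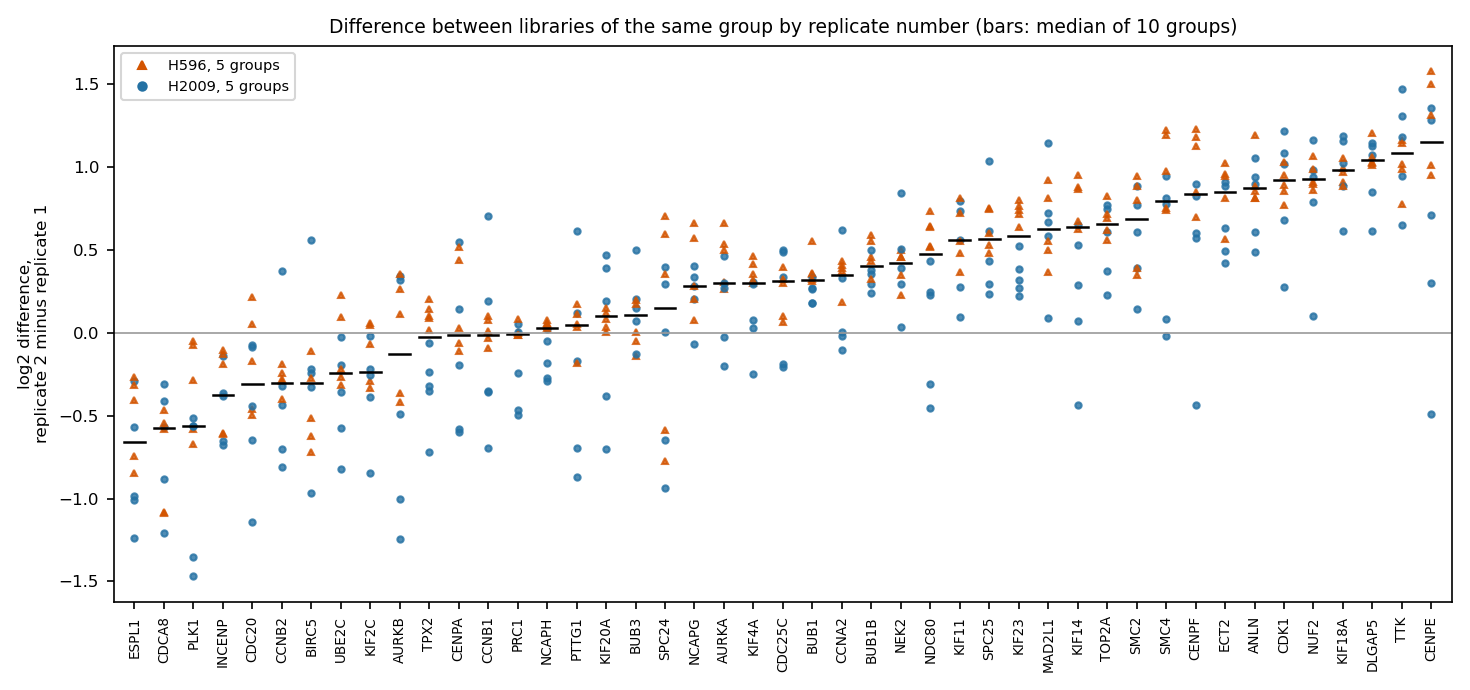
Log2 difference of FPKM + 1 between replicate 2 and replicate 1 of the same group for each of the 45 genes, ordered by the median of 10 groups (bars); triangles are the 5 groups of H596 and circles the 5 groups of H2009. ESPL1 sits lowest, at a median of -0.66, and CENPE highest, at a median of 1.15.

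Untreated H596 and H2009 cells differed in 10 of the 45 genes in the unpaired fit, 4 lower and 6 higher in H596, where 19.1% of genes tested were lower and 24.1% higher. With quantile normalization the split was 5 and 4, where 2998 of 12781 genes tested were lower and 2771 higher. The median of all genes was then -0.035 in place of 0.080. The paired fit called 8 lower and 15 higher (backgrounds 31.3% and 38%), so the share that differed was below that of all genes tested. With any 1 untreated library left out, unpaired calls were fewer among the 45 and among all genes tested, in fits that hold 1 library in a group. The median log2 difference of the 45 was 0.15, against 0.080 over all genes tested, but -0.066 without H596 replicate 2, 0.32 without H596 replicate 1, 0.037 without H2009 replicate 1 and 0.25 without H2009 replicate 2.

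BUB1 had 70.5 and 88.6 FPKM in untreated H596 cells, against 240.2 and 303 FPKM in untreated H2009 cells, a log2 change of -1.76 (SE 0.26, adjusted p = 0.00044). BUB3 had 98.3 and 111 FPKM in untreated H596 cells, against 216 and 197 FPKM in untreated H2009 cells, a log2 change of -0.98 (SE 0.21, adjusted p = 0.00494). PTTG1 had 334 and 362 FPKM in untreated H596 cells, against 626 and 679 FPKM in untreated H2009 cells, a log2 change of -0.91 (SE 0.24, adjusted p = 0.0131). BUB1 was thus the gene that set the lines furthest apart. NCAPG had 44.1 and 46.6 FPKM in untreated H596 cells, against 72.3 and 96.03 FPKM in untreated H2009 cells, a log2 change of -0.86 (SE 0.20, adjusted p = 0.00716). These 4 were the lower genes, all without overlap. Both H596 libraries lay below both H2009 libraries in 6 of the 45 and 31.4% of genes tested, and above both in 14 and 37.8%. The higher genes were NEK2 (1.01), CENPF (1.32), KIF2C (0.55), KIF14 (1.05), PRC1 (0.80) and CDC20 (0.67). Of these, NEK2 had 120.2 and 165 FPKM in untreated H596 cells, against 58.3 and 83.3 FPKM in untreated H2009 cells, a log2 change of 1.01 (SE 0.31, adjusted p = 0.0262). CENPF had 58.5 and 95.5 FPKM in untreated H596 cells, against 23.6 and 36.3 FPKM in untreated H2009 cells, a log2 change of 1.32 (SE 0.45, adjusted p = 0.0381). KIF14 had 16.5 and 26.00 FPKM in untreated H596 cells, against 8.47 and 10.6 FPKM in untreated H2009 cells, a log2 change of 1.05 (SE 0.36, adjusted p = 0.0391). Both H596 libraries of each lay above both H2009 libraries. CDC20 had 211 and 219 FPKM in untreated H596 cells, against 157 and 115 FPKM in untreated H2009 cells, a log2 change of 0.67 (SE 0.20, adjusted p = 0.0237), in the same order. KIF2C, a kinesin that takes microtubules apart, had 71.6 and 74.1 FPKM in untreated H596 cells, against 54.00 and 45.02 FPKM in untreated H2009 cells, a log2 change of 0.55 (SE 0.17, adjusted p = 0.0276), again without overlap. ANLN had 450.3 and 834 FPKM in untreated H596 cells, against 157 and 327 FPKM in untreated H2009 cells, a log2 change of 1.43 (SE 0.52, adjusted p = 0.0508 unpaired and 3.58e-05 paired), and was thus the most abundant of the 45 per length in H596.

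Lower in the paired fit alone were BIRC5 (-0.60), ESPL1 (-0.58), TTK (-0.47) and KIF11 (-0.39). Higher in it alone, with ANLN, were ECT2 (1.01), KIF23 (0.97), SMC4 (0.80), SPC25 (0.77), KIF18A (0.73), NDC80 (0.70), CCNB2 (0.46) and BUB1B (0.36). The regulators PLK1 (0.20), AURKA (-0.19), CCNB1 (-0.28) and CDK1 (0.15) passed in neither fit. Averaged over untreated libraries, PTTG1 was the highest of the 45 per length in H2009 at 652.7 ± 37.6 FPKM, and KIF14 the lowest at 9.51 ± 1.47 FPKM (SD, n = 2). In H596 ANLN was highest at 642 ± 271.2 FPKM, followed by PTTG1 at 347.9 ± 19.3 FPKM with both libraries below both of ANLN, and ESPL1 lowest at 7.76 ± 1.72 FPKM (SD, n = 2).

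Other genes of the same processes were counted from lists by role, and each count stands against the share of all genes tested in the paired fit. That share was 27% lower and 15.4% higher with siBL1 in H2009, 26.6% lower and 19.8% higher with siBL1 in H596, 22.4% lower and 22.2% higher with compound B in H2009, and 2.89% lower and 3.79% higher with compound B in H596. Of 32 further kinetochore genes, the paired fit called 13 lower and 2 higher with siBL1 in H2009, 25 lower and 1 higher with siBL1 in H596, 8 lower and 4 higher with compound B in H2009, and 2 lower and 0 higher with compound B in H596. CENPI, of the inner kinetochore, changed by -1.51 with siBL1 in H2009 and -0.77 with siBL1 in H596. Of 17 further genes of the anaphase promoting complex the same fit called 6, 8, 6 and 0 lower and 0, 2, 1 and 0 higher in these 4 comparisons. Of 14 further condensin and cohesin genes it called 2, 8, 1 and 0 lower and 3, 0, 3 and 0 higher. Of 39 other G2/M genes it called 14 lower and 6 higher with siBL1 in H2009, 38 lower and 1 higher with siBL1 in H596, 12 lower and 1 higher with compound B in H2009, and 6 lower and 0 higher with compound B in H596. In this list WEE1, the kinase that restrains CDK1, rose by 0.98 with siBL1 in H2009, and KIF20B, a kinesin of cytokinesis, fell by 1.48 with compound B in H2009.

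The 15 regulators of G2/M transcription gave 5, 7, 4 and 0 lower and 0, 0, 1 and 0 higher in the paired fit, in the order siBL1 in H2009, siBL1 in H596, compound B in H2009 and compound B in H596. Their lower shares can be read against the same backgrounds of 27%, 26.6%, 22.4% and 2.89%. MYBL2, which encodes B-MYB, changed by -1.05 with siBL1 in H2009 and -0.41 with siBL1 in H596. FOXM1, a forkhead factor of G2/M genes, changed by -0.31 with siBL1 in H596, and LIN9, a MuvB subunit, by -0.78 with compound B in H2009. By promoter, the 34 genes with TTTGAA or TTTAAA had median log2 changes of -0.23, -0.56, -0.45 and -0.34 in the same order, and the 5 without had -0.0017, -0.60, -0.27 and -0.27. With so few genes lacking the element no difference was tested.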

How the data were processed

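RNA was measured in 20 libraries made with a stranded mRNA kit, per the labels' protocols; 8 further cDNA libraries were not used. Per the submitters' processing notes, the tools were CASAVA 1.8.2, TopHat2 2.0.12 and Cufflinks 2.2.1 with hg19. The deposited unit is FPKM, computed by the authors for each gene in 3 tables. No read counts were used here, so the depth per library is unknown. Genes with a mean of at least 1 FPKM in a table (for the compounds, over the 6 libraries of at least 1 line) were tested on log2(FPKM + 1) with limma 3.58.1 in R 4.3.3, moderated along a mean-variance trend, with p-values adjusted by Benjamini-Hochberg over all genes of the table, and called at an adjusted p under 0.05. Both siRNA fits used 4 libraries each; the compound fit used all 12. The limma fit was tested on simulated data.

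Replicate number entered as a term within each line in the paired fit. The labels do not say what it marks; the pairing was taken from the replicate 2 minus replicate 1 differences, which correlated between all 45 pairs of groups. These correlations and the counts of calls were known together, so both fits are given; the siRNA and H596 compound B calls come from the paired fit alone.

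The 45 genes, their roles and the other gene lists were chosen with earlier results of these data known. Named genes were CDK1, CCNB1, PLK1, AURKA and CDC20. In each comparison, those of the 2 genes per role with the largest absolute log2 change that passed either fit were added. Some named genes are given by log2 change alone in the comparisons with compound C and between untreated lines. Other genes are mostly given by range, count or log2 change alone, and were picked with their values seen. Promoter windows came from RefSeq for GRCh38.p14 by symbol. Alternatives were another pseudocount, no filter, quantile normalization, no trend, each line alone, the replicate block and leaving out each library.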

Additional observations from a re-analysis of the deposited data

Results flagged for a closer look

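In the paired fit the response to compound B differed between the lines in CDC25C, by -0.78 on the log2 scale in H596 minus H2009, and in KIF14, by -0.79. Neither difference passed in the unpaired fit. In the paired fit 8.19% of genes tested were lower and 6.11% higher, so the share of the 45 called was below that of all genes tested. The calls also moved with the setting of the paired fit. It called 1 lower and 1 higher with a pseudocount of 0.1, and 1 lower and 0 higher with 1 term over both lines. With quantile normalization, no filter and no trend it called 3, 2 and 1 lower and 2, 1 and 2 higher. Over all genes tested the lower counts in these settings, in the order given, were 930, 611, 1129, 1202 and 956. The higher counts were 790, 442, 1115, 827 and 749.

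With siBL1, 8 genes were higher within both replicates in H2009 and lower within both in H596. Their log2 changes in H2009 were 0.14 for CCNB2, 0.17 for CDC25C, 0.37 for CENPF, 0.37 for ECT2, 0.075 for KIF18A, 0.19 for NEK2, 0.090 for SMC2 and 0.32 for TTK. All 45 members were lower within both replicates in H596, and these 8, 17.8% of the 45, were the members higher within both in H2009, where 33.3% of all genes tested were. In H2009 both siBL1 libraries lay above both siNT libraries in 0 of the 45, against 12.1% of genes tested. The groups of all 8 thus overlapped there. Of the 8, TTK, CENPF and ECT2 alone passed in the paired fit in H2009, where 15.4% of genes tested were higher. The differences between the lines were not tested, because the lines stand in separate tables and their siRNA times differ. With compound B, BIRC5 at 0.26 and NEK2 at 0.25 in H2009 were likewise higher within both replicates there and lower within both in H596. The test of the difference between the lines did not call them. Replicate 2 of NEK2 in H2009 was nearly level, at 84.1 FPKM with compound B and 83.3 FPKM untreated. In H2009 5 of the 45 were higher within both replicates, against 39.3% of genes tested. In H596 41 of the 45 were lower within both, against 39.2%.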

How the results depend on the processing

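Calls depended most on the replicate block. With it, members called numbered 24 for siBL1 in H2009, 45 for siBL1 in H596, 25 and 7 for compound B in H2009 and H596, 25 and 5 for compound B against compound C in H2009 and H596, 2 for the difference between lines and 23 between untreated lines. Of all genes tested it called 27%, 26.6%, 22.4%, 2.89%, 24%, 1.67%, 8.19% and 31.3% lower, in the same order. It called 15.4%, 19.8%, 22.2%, 3.79%, 21.6%, 2.99%, 6.11% and 38% higher. In that order, after seeing the data, the block was also combined with quantile normalization (20, 45, 20, 7, 23, 7, 5, 23), pseudocount 0.1 (24, 45, 25, 6, 25, 5, 2, 23), no filter (24, 45, 25, 7, 25, 5, 3, 22) and no trend (20, 45, 26, 7, 26, 7, 3, 25). Calls over all genes tested moved as well, for siBL1 in H2009 to 2845 lower and 2923 higher of 11223 with quantile normalization. As 1 term over both lines the block gave 24 and 4, then 23 and 4, then 1 and 22. Over all genes tested that term gave 2489 lower and 2408 higher for compound B in H2009, and 98 and 189 in H596. With the libraries of H2009 alone, compound B gave 1 call against untreated, where 165 of 12781 genes tested were lower and 371 higher. Against compound C it gave 0, where 165 were lower and 349 higher. Leaving out 1 library gave 2 to 3 calls for compound B in H2009, 1 to 7 against compound C there and 5 to 9 between untreated lines. The cause was not tested.

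Quantile normalization, with or without the block, moved the median log2 change to -0.069 and -0.52 for siBL1 in H2009 and H596, -0.28 and -0.23 for compound B, 0.072 for compound C in H596, and -0.22 and -0.31 for compound B against compound C. It turned the sign of CDK1 with siBL1 in H2009 (0.12), compound C in H2009 (-0.022) and compound B against compound C in H2009 (0.32), and of PLK1 with compound C in H596 (0.011). Over single libraries left out, medians ran from -0.35 to -0.22 and -0.75 to -0.44 for siBL1 in H2009 and H596, -0.47 to -0.40 and -0.59 to -0.12 for compound B, -0.14 to 0.14 and -0.16 to 0.23 for compound C, -0.55 to -0.36 and -0.59 to -0.20 for compound B against compound C, -0.043 to 0.26 for the difference between lines and -0.066 to 0.32 between untreated lines.

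With 1 library left out, the number of the 45 members that changed sign was 27 and 8 for siBL1 in H2009 and H596, 14 and 16 for compound B, 44 and 39 for compound C, 11 and 15 for compound B against compound C, 27 for the difference between lines and 21 between untreated lines. Members called in the paired fit were among them in 8 and 8 cases for siBL1 in H2009 and H596, 1 for compound B in H2009 and 1 between untreated lines. Ranges follow for the named genes only. With siBL1 in H2009 they were CDK1 (-0.66 to 0.56), KIF11 (-0.68 to 0.11), PLK1 (-1.35 to 0.12) and CDC20 (-1.06 to 0.085), and in H596 CDK1 (-0.81 to 0.082). With compound B they were CDK1 (-0.31 to 0.38) and CDCA8 (-0.87 to 0.010) in H2009 and CDK1 (-0.73 to 0.30) in H596. With compound C in H2009 they were AURKA (-0.31 to 0.16), CDK1 (-0.49 to 0.60), CCNB1 (-0.25 to 0.45), PLK1 (-0.34 to 0.22) and CDC20 (-0.34 to 0.10), and in H596 CDK1 (-0.58 to 0.38), AURKA (-0.32 to 0.35) and CDC20 (-0.086 to 0.13). Between compounds it was CDK1 (-0.56 to 0.52 in H2009, -0.63 to 0.40 in H596). For the difference between lines they were CDK1 (-0.77 to 0.26), CDC20 (-0.14 to 0.30) and AURKA (-0.094 to 0.57), and between untreated lines AURKA (-0.52 to 0.14), CDK1 (-0.33 to 0.63) and PLK1 (-0.082 to 0.48). No member called in the unpaired fit changed sign with a library left out. Leaving out a library of one replicate number unbalances the numbers between groups.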

Other observations

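Genes of DNA replication and S phase entry were counted in the same way. Of all genes tested, the paired fit called 27% lower and 15.4% higher with siBL1 in H2009, 26.6% and 19.8% with siBL1 in H596, 22.4% and 22.2% with compound B in H2009, and 2.89% and 3.79% with compound B in H596. Of 18 genes on this list the paired fit called 13 lower and 0 higher with siBL1 in H2009, 14 lower and 1 higher with siBL1 in H596, 11 lower and 2 higher with compound B in H2009, and 2 lower and 0 higher with compound B in H596. RRM2, a subunit of ribonucleotide reductase, changed by -1.84 with siBL1 in H2009 and -0.92 with siBL1 in H596. MCM5, of the replicative helicase, fell by 0.94 with compound B in H2009, also in the unpaired fit (limma adjusted p = 0.0113), and GINS1, of the same helicase complex, by 0.74 with compound B in H596 in the paired fit.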
